A study of Drosophila melanogaster with 32 samples.

Results

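The step from early to intermediate passages of the Drosophila melanogaster cell line R4 was followed in 8 of 32 RNA sequencing libraries. The early group held passages 2, 3 and 4 and the intermediate group passages 5, 6, 7, 9 and 11, with 1 library per passage, taken from the passage named in each sample title. The series followed 3 lines, R1, R4 and R5, from their first passages until they grew as continuous lines, and a passage number counts how often a culture had been split. The submitters' text counts passage 4 in the early and in the intermediate stage; here it was early, and passage 12 of R4, which lies outside the named stages, was left out of all tests. All R4 libraries came from cells grown in flasks in Schneider's medium with 10% fetal bovine serum and antibiotics; RNA was isolated with TRIzol, depleted of ribosomal RNA with a kit for human, mouse and rat RNA, and made into libraries with Script-Seq v2. The labels and series text do not state the genotype of R4, the tissue it came from or any transgene. The libraries are successive passages of 1 culture, and the test takes its spread from the passages within each line and stage, pooled over R1, R4 and R5. No p-value therefore measures the spread between independent cultures of R4.

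Primary cultures of fly tissue start as mixtures of many cell types, among them blood cells, fat body, muscle, nerve and epithelial cells, and the cells that keep dividing take over as the culture is passaged. Blood cells (hemocytes) engulf debris and make clotting and melanization proteins, the fat body secretes lipoproteins and immune peptides, and the somatic cells of the gonad are marked by the Maf factor traffic jam (tj). Hox genes keep the identity of a body segment, and Polycomb proteins keep silent Hox genes silent.

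Total counts of the 8 libraries ran from 10888029 to 14630375, and the mitochondrial large ribosomal RNA took 3.94 to 5.48% of them. CPM below are counts scaled to library size in the usual unit, with library sizes adjusted by TMM factors, which correct for differences in RNA composition. Values of a gene are given in the order of passages 2, 3 and 4 for early and 5, 6, 7, 9 and 11 for intermediate. Log2 changes are intermediate minus early, with an approximate standard error after ±. It was derived as the size of the log2 change divided by the square root of the F statistic of edgeR's quasi-likelihood test. Amounts after "rose by" and "fell by" are on the same log2 scale. Adjusted p-values are from the same test over all 9177 genes tested, with a threshold of 0.05. In bulk RNA, fewer cells of a type and less RNA per cell cannot be told apart, for any change given here.

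R4 changed most over its first passages. On the first principal component of the 31 libraries, passages 2 and 3 lay at -76.7 and -54.8, passage 4 at -4.17 and passage 5 at 12.5, and the later intermediate passages between 28.2 and 46.1. The late passages 16, 17 and 19 lay between 28.4 and 30.0, within the range of the intermediate libraries on this component. The early label therefore spans most of the distance along it. The first component held 31.5% of the variance and the second 18.2%. On the second, the late libraries lay between -14.7 and -8.12, outside the intermediate range of -29.6 to -19.7. Passage 4 differed over 2-fold from passage 3 in 1300 genes and from passage 5 in 711, while passages 7 and 9 differed in 308. On the log2 scale, passage 4 was compared with the intermediate mean and with the mean of passages 2 and 3. It was nearer to the intermediate mean in 1074 (54.9%) of the genes that fell and in 498 (35.4%) of those that rose.

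**Figure D1:**
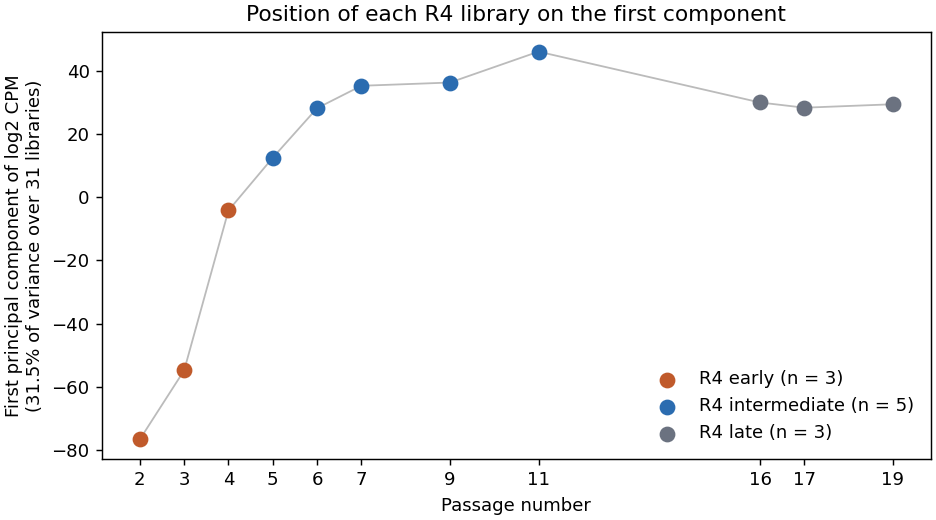
The first principal component of log2 CPM (y axis) against passage number (x axis) for each R4 library, with 1 point per library coloured by stage. Passages 2 and 3 stand at -76.7 and -54.8, passage 4 at -4.17, and the 5 intermediate libraries between 12.5 and 46.1.

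Of 9177 genes tested, 3366 (36.7%) differed between intermediate and early R4, of which 1408 (15.3%) rose and 1958 (21.3%) fell. Counts for gene lists below are to be read beside these shares of all genes. The falls were larger than the rises. Among the genes that fell, the median log2 change was -1.30 and 299 fell over 8-fold, while among the genes that rose the median was 0.39 and 17 rose over 8-fold. The early and intermediate libraries did not overlap in 2682 genes (29.2%), 1301 of them higher and 1381 lower. Among the genes that fell, 1088 (55.6%) were highest at passage 2 and 636 (32.5%) at passage 3, and among those that rose, 728 (51.7%) were highest at passage 11. Over all genes tested, 23.4% were highest at passage 2, 14.3% at passage 3 and 17.7% at passage 11. A fit of the 8 R4 libraries alone called 2122 genes (903 higher, 1219 lower). Without passage 2 the count was 2299, and without passage 4 it was 3778.

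**Figure D2:**
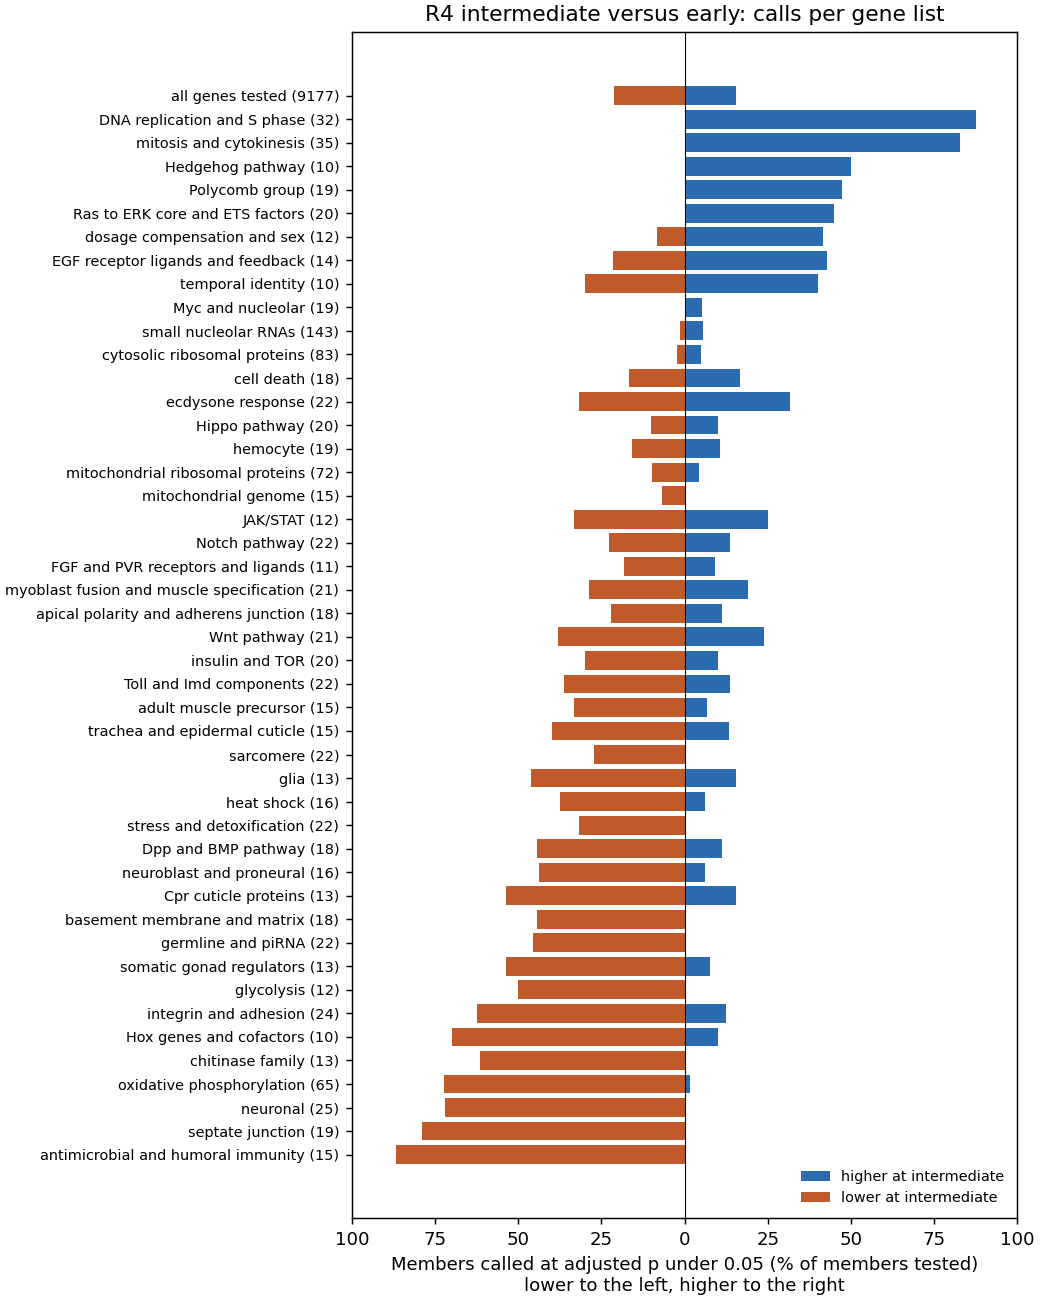
Share of tested members of each gene list called at an adjusted p under 0.05 (x axis, in percent, higher to the right in blue and lower to the left in orange), with the number tested in brackets, for lists with at least 10 tested members. The top bar holds all 9177 genes (15.3% higher, 21.3% lower); replication and mitosis lists lie to the right and the immunity, septate junction and neuronal lists to the left.

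More than 1 in 2 of the regulators of the gonadal soma and of the Hox genes fell. Of 13 regulators of the somatic gonad, 7 fell and 1 rose (median log2 change -1.54, against -0.02 for all genes), and of 10 Hox genes and cofactors 7 fell and 1 rose (median -2.91). The members that rose were da, a general partner of basic helix-loop-helix factors, and exd, a Hox cofactor. The summed level of the list of Hox genes and cofactors was 669 to 917 CPM early and 815 to 930 CPM at intermediate. tj was at 141, 151 and 26.3 CPM early and 19.1, 5.42, 2.94, 0.648 and 0.0934 CPM at intermediate. The values fell from library to library after passage 3, and the lowest early library, passage 4, was close to passage 5. tj fell by 4.20 ± 0.95 (adjusted p = 0.00122), and the groups did not overlap; without passage 5 the change was -5.53. abd-A, a Hox gene of the abdomen, was at 47.5, 62.6 and 10.8 CPM early and 7.69, 2.34, 1.72, 0.432 and 0 CPM at intermediate. It fell by 4.01 ± 0.995 (adjusted p = 0.00281), with no overlap, and the change was -5.14 without passage 5. No read of abd-A was left at passage 11. Dfd, a Hox gene of the head, was at 3.78, 7.37 and 1.90 CPM early and 0.290, 0.323, 0.0817, 0.0720 and 0 CPM at intermediate and fell by 4.69 ± 0.61 (adjusted p = 8.42e-06); the change was -4.09 without passage 3. Ubx, a Hox gene of the thorax and abdomen, was at 6.01, 1.19 and 0.165 CPM early and 0.218, 0, 0.245, 0.144 and 0.0934 CPM at intermediate. Only passages 2 and 3 lay above every intermediate library. Its change of -4.03 ± 0.84 (adjusted p = 0.000759) lost its call without passage 2 (log2 change -2.18, adjusted p = 0.0753). The trunk gene tsh was at 48.6, 63.2 and 23.04 CPM early and 17.5, 15.2, 11.9, 10.5 and 20.3 CPM at intermediate and fell by 1.58 ± 0.32 (adjusted p = 0.000517), with no overlap.

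eya, a transcription cofactor of somatic gonad precursors and the eye, was at 30.4, 13.5 and 4.38 CPM early and 1.52, 1.13, 1.63, 1.66 and 1.59 CPM at intermediate. All intermediate libraries lay below 2 CPM. eya fell by 3.41 ± 0.48 (adjusted p = 1.72e-05), and the change was -2.56 without passage 2. bnb, a further gene of the gonad list, was at 299.7, 244 and 32.3 CPM early and 30.5, 15.0, 9.15, 9.08 and 3.08 CPM at intermediate and fell by 3.83 ± 0.73 (adjusted p = 0.000284). zfh1, a zinc finger and homeodomain factor of gonadal mesoderm and muscle precursors, was at 109.8, 130.5 and 93.9 CPM early and 80.4, 89.3, 88.0, 88.5 and 112 CPM at intermediate. Its groups overlapped, and its log2 change of -0.28 ± 0.16 (adjusted p = 0.175) did not pass the test. The summed level of the gonad list was 3849 to 4890 CPM early and 4038 to 4842 CPM at intermediate, and its most abundant member, fax, did not pass the test and was chosen after its values were seen; the part of other cell types in these changes was not tested. In the fit of the 8 R4 libraries alone, 8 of the 10 Hox genes and cofactors had enough reads to be tested, and 4 of them were lower.

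Germline and piRNA genes fell in part. Of 22 germline and piRNA genes 10 (45.5%, against 21.3% of all genes) fell and none rose (median -0.45). piwi, the Argonaute protein that works with piRNAs in germline and gonadal somatic cells, was at 190.3, 129 and 25.2 CPM early and 18.7, 6.14, 3.27, 3.24 and 2.05 CPM at intermediate. Passages 2 and 3 stood far above the rest. piwi fell by 4.08 ± 0.75 (adjusted p = 0.000208) and did not overlap; without passage 5 the change was -4.95. mael, another piRNA factor, was at 47.9, 49.0 and 12.0 CPM early and 8.35, 8.49, 11.0, 11.5 and 8.03 CPM at intermediate. It had reached its intermediate level by passage 4 and fell by 1.94 ± 0.30 (adjusted p = 3.77e-05), and passage 4 lay above the highest intermediate library by less than 1 CPM. dsx, the switch gene of somatic sex, was at 76.8, 79.9 and 20.5 CPM early and 12.5, 5.74, 5.07, 3.60 and 3.73 CPM at intermediate and fell by 3.26 ± 0.57 (adjusted p = 0.000130), with passage 5 the highest of the intermediate libraries. Among 12 genes of dosage compensation and sex, 5 rose and 1, dsx, fell.

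Of 10 temporal identity genes, 4 rose and 3 fell (median 0.19), and the rises were 1 without passage 2 or 3 and 2 without passage 6, 7 or 11. chinmo, a BTB zinc finger protein that marks early-born neurons and is required in testis stem cells, was at 716, 619 and 176 CPM early and 104, 67.1, 52.1, 40.2 and 61.0 CPM at intermediate. Every intermediate library lay below every early one. chinmo fell by 2.96 ± 0.52 (adjusted p = 0.000145). mamo, a zinc finger protein of the same list, was at 206, 267 and 135 CPM early and 141, 119, 100.02, 98.3 and 153 CPM at intermediate, with overlapping groups. It fell by 0.73 ± 0.20 (adjusted p = 0.00685), but without passage 3 the call was lost (log2 change -0.48, adjusted p = 0.108). E(bx), the large subunit of the nucleosome remodelling factor NURF, was at 363, 409 and 448 CPM early and 504, 536, 537, 531 and 638 CPM at intermediate. All intermediate libraries lay above all early ones, and E(bx) rose by 0.43 ± 0.10 (adjusted p = 0.00181).

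**Figure D3:**
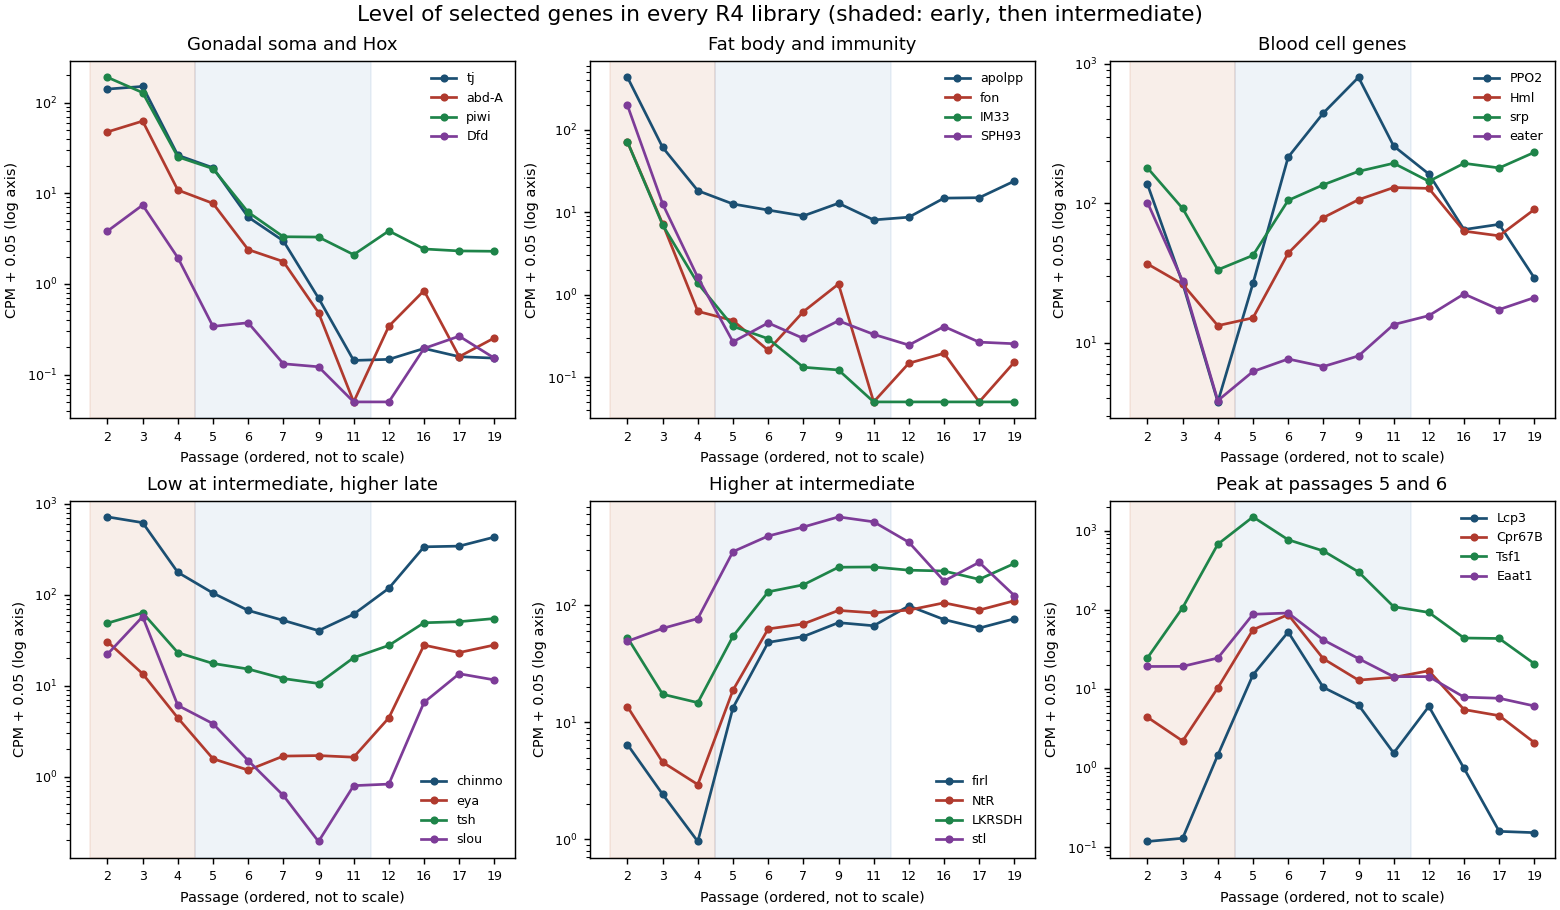
Level of 24 genes in every R4 library, as CPM plus 0.05 on a log axis (y) against passage in order (x, not to scale), with the early libraries shaded orange and the intermediate ones blue; passages 12 to 19 are shown for reference. tj, abd-A, piwi and Dfd fell through the intermediate passages, PPO2 and Hml were lowest at passage 4 and rose, and Lcp3 peaked at passage 6.

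Most listed genes of antimicrobial and humoral immunity fell from a high point at passage 2. Of 28 matched genes of antimicrobial and humoral immunity, 15 passed the filter of 1 CPM in 3 libraries. Of these 15, 13 fell and none rose (median -4.62, unchanged with the 2 genes without intermediate reads set to their bound). All 15 were highest at passage 2, as were 23.4% of all genes. A gene low at intermediate could pass the filter only through libraries where it was high, so these counts may partly follow from the filter. IM33, an immune-induced peptide, was at 71.3, 6.97 and 1.32 CPM early and 0.363, 0.242, 0.0817, 0.0720 and 0 CPM at intermediate. It was already near 1 CPM at passage 4. IM33 fell by 7.30 ± 1.17 (adjusted p = 6.61e-05), and the change was -4.63 without passage 2. TotA, a secreted stress protein, was at 29.0, 2.14 and 0.165 CPM early and 0.218, 0.0808, 0.0817, 0.0720 and 0.0934 CPM at intermediate. Its groups overlapped, and passage 4 lay within the intermediate range. TotA fell by 6.43 ± 1.18 (adjusted p = 0.000231), and the change was -3.27 without passage 2. Drs, the antifungal peptide drosomycin, was at 91.3, 23.6 and 14.0 CPM early and 5.59, 20.5, 11.8, 18.2 and 8.50 CPM at intermediate. The groups overlapped, and its log2 change was -1.74 ± 0.66 (adjusted p = 0.0414). The call was lost without passage 2 (log2 change -0.54, adjusted p = 0.612) and also without passage 5, 7 or 11 (adjusted p = 0.0858, 0.0719 and 0.0855). It was also lost with no filter on low counts and in the fit of the 8 R4 libraries alone (adjusted p = 0.0516 and 0.0701). BomS1 and AttC, a Bomanin peptide and an attacin, had no read in the 5 intermediate libraries and none at passage 4. Within R4 both were above 1 CPM only at passage 2. They were chosen after their values were seen. In the fit of the 8 R4 libraries alone only 5 of the 15 genes had enough reads to be tested, of which 2 were lower. Without passage 2, 8 of the 15 were tested and 4 were lower.

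Sensors and signals upstream changed in both directions. Of 22 Toll and Imd components, 8 (36.4%) fell and 3 (13.6%) rose (median -0.17), beside 21.3% and 15.3% of all genes. When passage 2 or 3 was left out, 5 fell. PGRP-SA, which senses bacterial peptidoglycan, was counted in the list of antimicrobial and humoral immunity above. It was at 32.0, 22.7 and 10.2 CPM early and 9.65, 6.79, 4.98, 5.76 and 1.96 CPM at intermediate. PGRP-SA fell by 1.88 ± 0.36 (adjusted p = 0.000293). Its fall was gradual. spz, the ligand of the Toll receptor, was at 124, 145 and 122 CPM early and 44.4, 33.7, 28.6, 39.6 and 23.6 CPM at intermediate. The early libraries were alike and the level dropped between passages 4 and 5. spz fell by 1.94 ± 0.23 (adjusted p = 5.05e-06), and the groups did not overlap. modSP, a protease that acts upstream of spz, was at 14.9, 18.5 and 12.0 CPM early and 5.88, 3.80, 3.11, 2.67 and 1.21 CPM at intermediate and fell by 2.17 ± 0.36 (adjusted p = 7.33e-05). Dif, the NF-kappaB factor of the Toll pathway, was at 49.9, 50.2 and 53.3 CPM early and 177, 141, 123, 98.3 and 118 CPM at intermediate. The early libraries were again alike, and all intermediate libraries lay above them. Dif rose by 1.36 ± 0.23 (adjusted p = 8.22e-05).

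Most genes listed as secreted proteins of the fat body fell too. Of 16 matched genes of secreted fat body proteins 9 passed the filter, with the same limit as for the immunity genes. Of these 9, 7 fell and none rose (median -3.07), and 7 were highest at passage 2. apolpp, the lipoprotein that carries lipid in the hemolymph, was at 434, 61.3 and 18.2 CPM early and 12.6, 10.6, 8.99, 12.8 and 8.03 CPM at intermediate. Most of its fall lay between passages 2 and 4. apolpp fell by 4.01 ± 0.66 (adjusted p = 6.38e-05), and the change was -1.91 without passage 2. fon, a clotting protein, was at 71.4, 7.21 and 0.578 CPM early and 0.436, 0.162, 0.572, 1.30 and 0 CPM at intermediate. Its groups overlapped at passage 4. fon fell by 5.66 ± 1.07 (adjusted p = 0.000253), and the change was -2.91 without passage 2 and -6.41 without passage 9. Lst, the peptide hormone limostatin, was counted in the list, though it is a hormone of endocrine cells and no marker of the fat body. It was at 55.5, 15.6 and 21.0 CPM early and 4.86, 4.45, 4.00, 3.75 and 1.03 CPM at intermediate. Lst fell by 3.07 ± 0.58 (adjusted p = 0.000266), and the change was -2.32 without passage 2. Tsf1, the iron carrier transferrin, was at 24.6, 106 and 673 CPM early and 1489.9, 766, 553, 300.5 and 109 CPM at intermediate. It peaked at passage 5, its groups overlapped, and its log2 change of 1.27 ± 0.91 (adjusted p = 0.293) did not pass the test; it was chosen after its values were seen. The summed level of the list was 1630 to 2221 CPM early and 1129 to 2435 CPM at intermediate, while the fat body protein Fbp1, chosen after its values were seen, was under 0.4 CPM in every intermediate library.

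Most listed blood cell genes were lowest at passage 4 or 5, as were part of the genes of other lists. Of 19 hemocyte genes, 2 (10.5%) rose and 3 (15.8%) fell (median 0.15), beside 15.3% and 21.3% of all genes. Of the 19, 16 had their lowest value of the 8 libraries at passage 4 or 5. Other lists varied, with 46 of 83 cytosolic ribosomal protein genes, 16 of 32 replication genes and 4 of 35 mitosis genes lowest there. For no list was the share of all genes lowest at these passages computed. The summed level of the 19 hemocyte genes was 1741, 1008 and 436.2 CPM early and 555.3, 1129, 1468, 2030 and 1635 CPM at intermediate. PPO2, the prophenoloxidase of crystal cells, was at 137, 26.6 and 3.72 CPM early and 26.6, 214, 443, 799 and 257 CPM at intermediate. It was highest at passage 9 and its groups overlapped at passages 2 and 5. PPO2 rose by 2.64 ± 0.93 (adjusted p = 0.0279), or by 4.51 without passage 2. The call was lost without passage 3, 4 or 9 (adjusted p = 0.118, 0.0835 and 0.0813) and in the fit of the 8 R4 libraries alone (adjusted p = 0.148), and with passage 4 taken as intermediate it was 0.204. Hml, a clotting protein of larval hemocytes, was at 36.7, 26.2 and 13.2 CPM early and 15.0, 43.7, 78.8, 106 and 129 CPM at intermediate. It rose steadily after passage 4, by 1.55 ± 0.54 (adjusted p = 0.0263). The groups overlapped, and without passage 3, 4, 9 or 11 the adjusted p was 0.0739, 0.105, 0.0570 and 0.0757; it was 0.115 in the fit of the 8 R4 libraries alone and 0.238 with passage 4 taken as intermediate.

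The GATA factor srp, which directs blood cell formation, was at 179, 91.6 and 33.3 CPM early and 42.2, 105, 135, 169 and 193 CPM at intermediate, chosen after its values were seen; its groups overlapped and its log2 change of 0.34 ± 0.55 (adjusted p = 0.664) did not pass. The receptor eater and the surface protein atilla stayed far below passage 2. eater, a phagocytosis receptor, was at 101, 27.6 and 3.80 CPM early and 6.17, 7.60, 6.70, 8.00 and 13.4 CPM at intermediate. It fell by 2.41 ± 0.71 (adjusted p = 0.0102), and the call was lost without passage 2 (log2 change -0.92, adjusted p = 0.391) and in the fit of the 8 R4 libraries alone (adjusted p = 0.0504). atilla, a surface protein of lamellocytes, was at 20.4, 4.67 and 0.413 CPM early and 0.145, 0.0808, 0, 0 and 0.280 CPM at intermediate and fell by 6.32 ± 1.07 (adjusted p = 9.57e-05); without passage 2 the change was -4.58 and without passage 11 -6.97.

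The genes with the steepest falls were mostly highest at passage 2. CG4793 was at 101, 5.78 and 0.661 CPM early and 0.145, 0, 0, 0.0720 and 0.0934 CPM at intermediate. CG15369 was at 73.0, 5.07 and 0.330 CPM early and 0.290, 0, 0, 0 and 0 CPM at intermediate. CG8157 was at 96.7, 12.5 and 0.413 CPM early and 0.0726, 0.0808, 0.163, 0.0720 and 0.280 CPM at intermediate. In each of these 3 genes, passage 2 stood far above passage 3 and passage 4 was under 1 CPM. CG4793 fell by 8.92 ± 1.41 (adjusted p = 5.79e-05), CG15369 changed by -8.47 ± 1.76 (adjusted p = 0.00216) and CG8157 by -8.04 ± 1.22 (adjusted p = 3.28e-05). Without passage 2 these changes were -5.45, -5.20 and -5.54, and without passage 5 that of CG15369 was -11.22; with under 10 intermediate reads each, their size is imprecise. SPH93, a serine protease homolog, was at 198, 12.6 and 1.57 CPM early and 0.218, 0.404, 0.245, 0.432 and 0.280 CPM at intermediate and fell by 7.75 ± 1.16 (adjusted p = 2.83e-05), and the change was -4.44 without passage 2. Tep1, a thioester protein of humoral immunity, was at 56.6, 6.02 and 0.991 CPM early and 0.290, 0, 0, 0.360 and 0.187 CPM at intermediate and fell by 6.85 ± 1.03 (adjusted p = 2.95e-05), and the change was -4.26 without passage 2. Hesr, a helix-loop-helix gene of the HES family, had a later course, at 70.3, 55.1 and 10.6 CPM early and 2.03, 0.566, 0, 0 and 0 CPM at intermediate. Passages 2 and 3 were alike, and no read was found from passage 7 on. Hesr fell by 6.35 ± 0.91 (adjusted p = 1.96e-05); without passage 5 the change was -8.21.

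The largest rises followed different time courses. Several genes dipped at passage 4 and rose from passage 5 on. CG33465 was at 1.49, 1.19 and 0.908 CPM early and 8.35, 34.3, 44.9, 41.7 and 48.6 CPM at intermediate and rose by 4.87 ± 0.58 (adjusted p = 4.48e-06). CG31337 was at 4.39, 1.11 and 0.578 CPM early and 7.11, 30.1, 36.8, 37.3 and 70.6 CPM at intermediate and rose by 4.11 ± 0.89 (adjusted p = 0.000868), or by 5.40 without passage 2. firl was at 6.41, 2.38 and 0.908 CPM early and 13.3, 48.3, 54.1, 71.2 and 66.9 CPM at intermediate. All intermediate libraries of these genes lay above all early ones. firl rose by 3.94 ± 0.60 (adjusted p = 3.47e-05), or by 4.93 without passage 2. NtR was at 13.6, 4.52 and 2.89 CPM early and 18.8, 62.9, 69.4, 90.6 and 86.3 CPM at intermediate and rose by 3.21 ± 0.58 (adjusted p = 0.000160), or by 4.14 without passage 2. LKRSDH, the enzyme that starts lysine breakdown, was at 52.9, 17.3 and 14.7 CPM early and 54.4, 131, 149.9, 212 and 213 CPM at intermediate. It was the least separated of these, with passage 5 just above passage 2. LKRSDH rose by 2.42 ± 0.48 (adjusted p = 0.000373), or by 3.24 without passage 2. regucalcin, a calcium-binding protein, was at 25.0, 10.7 and 8.59 CPM early and 26.2, 67.2, 75.7, 108 and 82.0 CPM at intermediate and rose by 2.27 ± 0.58 (adjusted p = 0.00330), or by 2.89 without passage 2; with passage 4 taken as intermediate it lost its call (adjusted p = 0.0806).

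stl, an ADAMTS-family protease, showed no dip, at 49.4, 63.5 and 77.1 CPM early and 288, 392, 468, 571 and 518 CPM at intermediate. It rose from library to library up to passage 9 and by 2.82 ± 0.38 (adjusted p = 1.13e-05) between the stages. pdm3, a POU transcription factor, was at 3.85, 2.93 and 9.99 CPM early and 19.7, 24.7, 23.04, 35.5 and 37.1 CPM at intermediate and rose by 2.33 ± 0.57 (adjusted p = 0.00256), or by 3.03 without passage 4. Other genes peaked at passages 5 and 6. Lcp3, a larval cuticle protein, was at 0.0675, 0.0792 and 1.404 CPM early and 15.0, 52.2, 10.4, 6.20 and 1.49 CPM at intermediate. It was nearly absent at passages 2 and 3 and had returned close to passage 4 by passage 11. Lcp3 rose by 5.06 ± 1.22 (adjusted p = 0.00213); the change was 7.67 without passage 4 and 4.02 without passage 6. Cpr67B, a chitin-binding cuticle protein, was at 4.32, 2.14 and 10.2 CPM early and 55.8, 86.6, 23.9, 12.8 and 13.9 CPM at intermediate and rose by 2.80 ± 0.85 (adjusted p = 0.0120). Its change was 3.57 without passage 4, and without passage 2 or 3 the adjusted p was 0.0561 and 0.0685. Some other cuticle genes fell. Of 70 matched genes of the Cpr family 13 passed the filter, and of these 2 rose and 7 fell (median -2.67), or 3 of the 12 tested without passage 2. A member low at intermediate could pass the filter only through libraries where it was high, so these counts may partly follow from the filter. The summed level of the 13 was 96.9 to 118 CPM early and 57.8 to 157 CPM at intermediate. Cpr11A was at 17.1, 5.94 and 1.82 CPM early and 0.145, 0.323, 0.0817, 0.288 and 0.0934 CPM at intermediate and fell by 5.38 ± 0.83 (adjusted p = 3.77e-05), and the change was -4.28 without passage 2.

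Most neuronal genes fell. Of 25 neuronal genes 18 fell and none rose (median -1.33), and 22 were highest at passage 2 or 3. Appl, a homolog of the amyloid precursor protein, was at 41.7, 63.7 and 36.1 CPM early and 18.2, 12.5, 8.50, 9.87 and 10.9 CPM at intermediate. It fell by 1.97 ± 0.24 (adjusted p = 4.89e-06), with no overlap. onecut, a neuronal homeodomain factor, was at 7.02, 15.3 and 5.12 CPM early and 1.89, 1.21, 1.39, 1.80 and 2.80 CPM at intermediate and fell by 2.33 ± 0.29 (adjusted p = 5.73e-06), and the change was -1.74 without passage 3. elav, a neuronal gene of the same list chosen after its values were seen, stayed level. It was at 172, 184 and 201 CPM early and 172, 197, 175, 178 and 190 CPM at intermediate. Its log2 change of -0.02 ± 0.08 (adjusted p = 0.849) did not pass the test. The summed level of the neuronal list was 2502, 4670 and 8589 CPM early and 4564 to 6561 CPM at intermediate. Most of it was unc-13, a synaptic vesicle priming gene, at 1446, 3451 and 7302 CPM early and 4779, 5575, 4746, 3687 and 4534 CPM at intermediate. Its groups overlapped, and annotated genes overlap it, so that reads cannot be assigned with certainty; unc-13 was chosen after its values were seen. Of 13 glial genes 6 (46.2%) fell and 2 (15.4%) rose (median -0.18), beside 21.3% and 15.3% of all genes. alrm, a gene of astrocyte-like glia, was at 55.8, 31.4 and 3.06 CPM early and 1.45, 0.727, 0.409, 0.648 and 0.560 CPM at intermediate. It fell by 5.27 ± 0.60 (adjusted p = 2.70e-06), and the change was -4.46 without passage 2. Of 16 neuroblast and proneural genes 7 fell and 1 rose (median -0.71), and 2 fell without passage 2. The log2 changes of this list ran from -2.50 to 1.74. Its summed level was 594, 650.3 and 1024 CPM early and 879 to 1058 CPM at intermediate. SoxN, a Sox factor of neural progenitors, was at 13.5, 12.8 and 7.93 CPM early and 4.79, 3.64, 1.80, 1.95 and 2.43 CPM at intermediate and fell by 1.96 ± 0.35 (adjusted p = 0.000147). insc, which orients the neuroblast spindle, was at 41.2, 38.3 and 17.4 CPM early and 13.4, 8.81, 8.66, 15.0 and 7.75 CPM at intermediate and fell by 1.59 ± 0.30 (adjusted p = 0.000231). Both had no overlap between the groups.

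Most genes of septate junctions and of cell adhesion fell. Of 19 septate junction genes, 15 fell and none rose (median -0.68), and 18 were highest at passage 2 or 3. vari, a scaffold protein of the septate junction, was at 445, 399 and 94.3 CPM early and 68.9, 48.2, 42.4, 44.3 and 40.8 CPM at intermediate. The drop lay between passages 3 and 4. vari fell by 2.68 ± 0.33 (adjusted p = 5.73e-06). Nrg, a cell adhesion protein of septate junctions and axons, was at 483, 485 and 266 CPM early and 216, 183, 171, 179 and 199 CPM at intermediate and fell by 1.12 ± 0.14 (adjusted p = 5.44e-06). Of 24 integrin and adhesion genes 15 fell and 3 rose (median -0.45), with 1 rise without passage 2. Itgbn, the second fly beta integrin, was at 91.1, 29.0 and 5.86 CPM early and 5.52, 3.96, 3.51, 3.60 and 1.21 CPM at intermediate and fell by 3.55 ± 0.69 (adjusted p = 0.000350), and the change was -2.28 without passage 2. crb, the apical determinant of epithelia, was at 349, 420.3 and 146 CPM early and 98.9, 68.7, 70.9, 94.0 and 64.8 CPM at intermediate and fell by 1.94 ± 0.30 (adjusted p = 4.27e-05). Among 18 genes of apical polarity and adherens junctions only 4 (22.2%) fell and 2 (11.1%) rose (median -0.02), near the 21.3% and 15.3% of all genes. ple, tyrosine hydroxylase of dopamine neurons and hardening cuticle, was at 18.6, 27.8 and 2.97 CPM early and 1.60, 0.808, 0.572, 0.648 and 0.467 CPM at intermediate. It fell by 4.29 ± 0.56 (adjusted p = 8.36e-06), and the change was -3.69 without passage 3.

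Of 18 genes of the basement membrane and matrix, 8 fell and none rose (median -0.38), with 11 lowest at passage 4 or 5, and 5 fell without passage 3. Ppn, the matrix protein papilin, was at 2019, 1107 and 851 CPM early and 420.2, 227, 308, 494 and 466 CPM at intermediate. Passage 2 was highest and passage 6 lowest. Ppn fell by 1.79 ± 0.33 (adjusted p = 0.000228), with no overlap. Tig, the integrin ligand tiggrin, was at 529, 332 and 100.2 CPM early and 96.8, 70.2, 88.9, 123 and 109 CPM at intermediate and fell by 1.71 ± 0.31 (adjusted p = 0.000180), with passage 4 inside the intermediate range. Timp, the inhibitor of matrix metalloproteases, was at 72.5, 148 and 45.7 CPM early and 43.2, 28.8, 15.4, 12.7 and 6.35 CPM at intermediate and fell by 2.06 ± 0.44 (adjusted p = 0.000792), and the change was -1.47 without passage 3. Of 13 genes of the chitinase family, 8 fell and none rose (median -1.42), and 5 fell without passage 2 (12 tested) or 3. Idgf1 and Idgf3, which belong to it as secreted growth factors without chitinase activity, were both lower. Idgf1 was at 149, 81.2 and 12.96 CPM early and 9.44, 7.27, 4.74, 4.39 and 3.45 CPM at intermediate. Idgf3 was at 177, 112 and 44.8 CPM early and 29.0, 23.7, 15.5, 12.3 and 7.75 CPM at intermediate. Idgf1 fell by 3.78 ± 0.54 (adjusted p = 1.78e-05), and the change was -2.999 without passage 2, and Idgf3 fell by 2.65 ± 0.40 (adjusted p = 2.84e-05).

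Muscle genes fell at a share near that of all genes, of which 21.3% fell. Of 22 sarcomere genes 6 (27.3%) fell and none rose (median -0.74), and 3 fell without passage 3. Of 21 genes of myoblast fusion and muscle specification 6 (28.6%) fell and 4 rose (median 0.07), with 1 rise without passage 2 and none without passage 3. The log2 changes of these 21 ran from -5.29 to 1.93. Their summed level was 1182, 1431 and 1779 CPM early and 1869 to 2270 CPM at intermediate. Mlc2, the regulatory myosin light chain, was at 15.0, 16.9 and 18.2 CPM early and 8.20, 2.42, 3.35, 3.82 and 2.61 CPM at intermediate. The early libraries were alike and the intermediate ones all lower. Mlc2 fell by 2.02 ± 0.36 (adjusted p = 0.000134), a call that was lost with passage 4 taken as intermediate (adjusted p = 0.0780). Act87E, a muscle actin whose reads may be shared with other actin genes, was at 30.9, 62.2 and 20.1 CPM early and 14.5, 5.98, 4.17, 3.10 and 4.11 CPM at intermediate and fell by 2.55 ± 0.49 (adjusted p = 0.000300). nau, the fly MyoD, was at 3.65, 2.85 and 1.07 CPM early and 0.218, 0.0808, 0, 0.0720 and 0 CPM at intermediate and fell by 4.83 ± 0.88 (adjusted p = 0.000182), and the change was -5.63 without passage 5. slou, a homeodomain factor of muscle founder identity, was at 22.1, 57.3 and 6.03 CPM early and 3.77, 1.45, 0.572, 0.144 and 0.747 CPM at intermediate. It peaked at passage 3 and fell by 4.38 ± 0.88 (adjusted p = 0.000425); without passage 3 the change was -3.37 and without passage 5 -5.29. Mef2, the general muscle factor, was at 38.4, 42.4 and 44.3 CPM early and 53.4, 48.8, 43.5, 46.3 and 55.2 CPM at intermediate. Its log2 change of 0.24 ± 0.16 (adjusted p = 0.242) did not pass.

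Of 15 genes of adult muscle precursors, 5 (33.3%, against 21.3% of all genes) fell and 1 rose (median -0.28), and their summed level was 4610 to 5798 CPM early and 5013 to 6301 CPM at intermediate. Him, an inhibitor of muscle differentiation, was at 21.1, 22.02 and 4.21 CPM early and 1.02, 0.970, 0.899, 0.720 and 1.12 CPM at intermediate. It fell by 4.06 ± 0.57 (adjusted p = 1.78e-05), with no overlap. twi, the mesodermal helix-loop-helix factor, was at 73.8, 90.8 and 32.8 CPM early and 40.9, 57.5, 77.0, 87.2 and 118 CPM at intermediate. It was lowest at passage 4 and then climbed to its highest value at passage 11. Its log2 change of 0.21 ± 0.47 (adjusted p = 0.765) did not pass, and the sign turned without passage 4 or 11 (-0.11 and -0.0042). htl, the FGF receptor of mesoderm, was at 313, 341 and 101 CPM early and 136, 118, 131, 146 and 199 CPM at intermediate. Its log2 change of -0.79 ± 0.35 (adjusted p = 0.0840) did not pass, and passage 4 was the lowest of the 8; without passage 4 it fell by 1.17 (adjusted p = 0.00817).

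Cell cycle genes rose by small amounts and in large number. Of 32 genes of DNA replication and S phase, 28 rose and none fell (median 0.68), and of 35 genes of mitosis and cytokinesis, 29 rose and none fell (median 0.58). None of either list was highest at passage 2 or 3, and 28 and 29 of them were highest at passage 9 or 11. dpa, the Mcm4 subunit of the replicative helicase, was at 119, 115 and 135 CPM early and 227, 204, 235, 243 and 259 CPM at intermediate. The level stepped up between passages 4 and 5. dpa rose by 0.92 ± 0.09 (adjusted p = 2.06e-07), with no overlap. Mcm7, a further subunit, was at 79.3, 74.4 and 74.0 CPM early and 155, 158, 176, 178 and 208 CPM at intermediate and rose by 1.21 ± 0.14 (adjusted p = 4.11e-06). glu, the SMC4 subunit of condensin, was at 214, 183 and 209 CPM early and 329, 348, 407, 402 and 432 CPM at intermediate and rose by 0.92 ± 0.12 (adjusted p = 6.58e-06), with no overlap. CycA, the cyclin of S phase and mitotic entry, was at 381, 337 and 367 CPM early and 451, 464, 513, 489 and 584 CPM at intermediate and rose by 0.47 ± 0.10 (adjusted p = 0.000678), with no overlap. Myc, a driver of growth, was at 551, 585 and 591 CPM early and 539, 551, 568, 539.7 and 649 CPM at intermediate. Its log2 change was -0.02 ± 0.13 (adjusted p = 0.937), and among 19 Myc and nucleolar genes 1 rose and none fell (median 0.06). The counts of higher replication and mitosis genes ran from 21 to 28 and from 29 to 31 over the alternatives tried, the lowest replication count with passage 4 taken as intermediate.

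**Figure D4:**
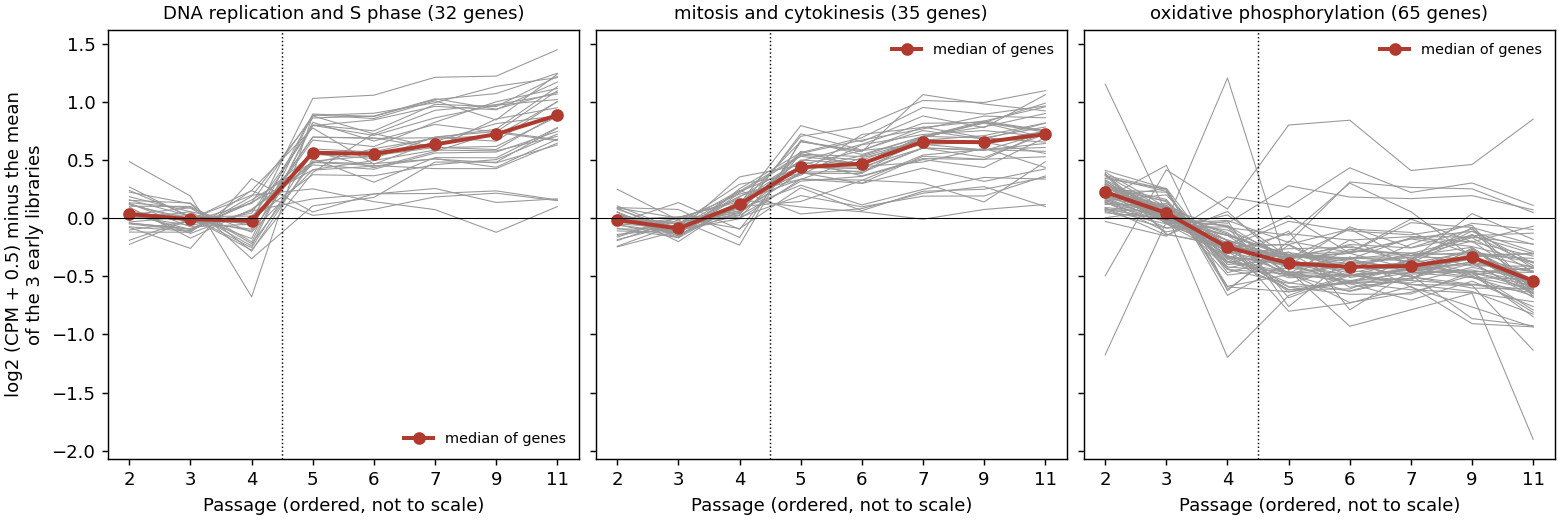
Each grey line is 1 tested gene and the red line the median of genes, as log2 (CPM + 0.5) minus the mean of the 3 early libraries (y axis) against passage in order (x axis); the dotted line separates early from intermediate. Most replication and mitosis genes stand above 0 in every intermediate library, and most nuclear genes of oxidative phosphorylation below it.

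Polycomb genes rose in part, with 9 of 19 (47.4%, against 15.3% of all genes) higher and none lower (median 0.26). Psc, a subunit of the repressive complex PRC1, was at 39.4, 52.6 and 57.1 CPM early and 68.6, 71.1, 68.8, 66.5 and 85.8 CPM at intermediate. All intermediate libraries were above all early ones. Psc rose by 0.54 ± 0.11 (adjusted p = 0.000418). phol, one of the pair of DNA-binding factors that recruit Polycomb complexes, was at 96.6, 98.1 and 110.1 CPM early and 146, 132, 142, 139 and 159.6 CPM at intermediate and rose by 0.50 ± 0.09 (adjusted p = 0.000136). Leaving out passage 4 brought the count of higher Polycomb genes to 14.

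Over all genes 15.3% rose and 21.3% fell, and the signalling lists are given beside these shares. Among 14 EGF receptor ligands and feedback genes 6 (42.9%) rose and 3 (21.4%) fell (median 0.34), and 2 rose without passage 2 or 3 and 3 without passage 11. vn, an EGF receptor ligand, was at 106, 106 and 69.8 CPM early and 42.1, 24.8, 23.04, 25.7 and 20.6 CPM at intermediate and fell by 1.78 ± 0.28 (adjusted p = 4.81e-05), with no overlap. Egfr, the receptor, was at 43.9, 42.7 and 12.4 CPM early and 15.7, 9.38, 7.11, 7.71 and 11.4 CPM at intermediate. It fell by 1.69 ± 0.32 (adjusted p = 0.000296), and passage 5 lay above passage 4. kek1, a feedback inhibitor of the receptor, was at 223, 269.7 and 349 CPM early and 377, 402, 407, 424 and 488 CPM at intermediate and rose by 0.58 ± 0.13 (adjusted p = 0.00150). Of 20 genes of the Ras to ERK core and ETS factors, 9 rose and none fell (median 0.21), or 5 with passage 4 taken as intermediate. Mkp3, a phosphatase that inactivates ERK, was at 299, 349 and 477 CPM early and 627, 607, 585, 567 and 612 CPM at intermediate and rose by 0.68 ± 0.13 (adjusted p = 0.000321), with no overlap. Among 11 FGF and PVR genes 2 (18.2%) fell and 1 (9.09%) rose (median -0.21), near the shares of all genes. bnl, the FGF ligand that guides tracheal branches, was at 183, 239.6 and 213 CPM early and 56.5, 34.1, 29.8, 25.9 and 17.0 CPM at intermediate. The drop lay between passages 4 and 5. bnl fell by 2.69 ± 0.36 (adjusted p = 1.13e-05). Pvf3, a ligand of the PDGF and VEGF receptor homolog, was at 66.0, 154 and 302 CPM early and 477, 341, 357, 452 and 412 CPM at intermediate, a climb through the early passages. Pvf3 rose by 1.23 ± 0.40 (adjusted p = 0.0188), or by 1.89 without passage 4, and the call was lost without passage 2 or 3 (adjusted p = 0.133 and 0.0766) and in the fit of the 8 R4 libraries alone (adjusted p = 0.0606).

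Of 12 JAK/STAT genes 4 (33.3%) fell and 3 rose (median -0.16). upd2, a cytokine ligand of the pathway, was at 6.95, 12.9 and 6.03 CPM early and 2.25, 1.54, 2.04, 3.17 and 1.59 CPM at intermediate. upd3, another such ligand, was at 10.8, 14.3 and 8.50 CPM early and 3.63, 2.26, 2.70, 4.18 and 1.59 CPM at intermediate. All intermediate values of both lay below all early ones. upd2 fell by 2.01 ± 0.37 (adjusted p = 0.000185) and upd3 fell by 1.95 ± 0.33 (adjusted p = 8.28e-05). Socs36E, a feedback inhibitor of the pathway, was at 199, 220.4 and 326 CPM early and 150.5, 132, 132, 151 and 119.7 CPM at intermediate. It was highest at passage 4 and fell by 0.86 ± 0.16 (adjusted p = 0.000289); with passage 4 taken as intermediate the adjusted p was 0.388. Of 21 Wnt genes 8 (38.1%) fell and 5 (23.8%) rose (median 0.06), and 2 rose without passage 2. wg, the founding Wnt ligand, was at 49.8, 51.5 and 15.1 CPM early and 8.06, 3.39, 2.21, 0.792 and 0.654 CPM at intermediate and fell by 3.65 ± 0.68 (adjusted p = 0.000220), and the change was -4.45 without passage 5. arr, the Wnt co-receptor, took the opposite course, at 106, 154 and 348 CPM early and 504, 513, 497, 469.6 and 570.1 CPM at intermediate. arr rose by 1.33 ± 0.29 (adjusted p = 0.00105), or by 1.97 without passage 4. Of 18 Dpp and BMP genes 8 (44.4%) fell and 2 (11.1%) rose (median -0.04); 5 fell without passage 2, 6 or 11, 4 without passage 7 and 3 without passage 3. dpp, the BMP ligand, was at 20.7, 10.2 and 4.21 CPM early and 2.54, 1.54, 1.31, 1.73 and 0.747 CPM at intermediate and fell by 2.88 ± 0.44 (adjusted p = 3.47e-05), and the change was -2.18 without passage 2. Of 10 Hedgehog genes, 5 rose and none fell (median 0.20), and leaving out passage 2 left 1 and passage 3 left 2.

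Of 22 ecdysone response genes 7 (31.8%) rose and 7 (31.8%) fell (median -0.04), beside 15.3% and 21.3% of all genes, and the rises were 3 without passage 2 and 4 without passage 3, 6 or 11. Hr39, a nuclear receptor, was at 105, 118 and 122 CPM early and 162, 186, 176, 173 and 200.2 CPM at intermediate and rose by 0.64 ± 0.08 (adjusted p = 5.73e-06). Eip75B, a heme-binding nuclear receptor induced by ecdysone, was at 85.5, 103 and 63.7 CPM early and 49.2, 48.9, 31.9, 29.5 and 36.9 CPM at intermediate and fell by 1.10 ± 0.19 (adjusted p = 0.000137). Of 20 insulin and TOR genes 6 fell and 2 rose (median -0.24), a called share near that of all genes, and leaving out passage 2 or 3 left 2 and 1 lower. Ilp6, an insulin-like peptide of the fat body, was at 23.6, 13.3 and 7.10 CPM early and 4.43, 2.42, 2.12, 1.87 and 1.59 CPM at intermediate and fell by 2.55 ± 0.44 (adjusted p = 0.000110). Called shares were near the 36.7% of all genes among 22 Notch genes (36.4%, 3 higher, or 1 without passage 2, and 5 lower) and 18 cell death genes (33.3%, 3 higher, 3 lower), while of 20 Hippo genes 2 were higher and 2 lower. Of 22 stress and detoxification genes 7 (31.8%) fell and none rose (median -0.33), and of 15 genes of trachea and epidermal cuticle 6 fell and 2 rose (median -0.91).

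Nuclear genes of oxidative phosphorylation fell by small amounts and in large number. Of 65 nuclear genes of oxidative phosphorylation, 47 fell and 1 rose (median -0.44), 55 were highest at passage 2, and without passage 2 the number that fell was 29. ATPsynbeta, the catalytic subunit of ATP synthase, was at 1040.0, 889 and 741 CPM early and 567, 600.2, 575, 565 and 536 CPM at intermediate. It fell by 0.65 ± 0.10 (adjusted p = 5.92e-05), with no overlap. UQCR-C1, a subunit of complex III, was at 346, 289 and 309 CPM early and 185, 249.5, 208, 185 and 164 CPM at intermediate and fell by 0.67 ± 0.11 (adjusted p = 6.19e-05). Of 15 genes of the mitochondrial genome itself, 1 fell and none rose (median 0.02). Of 12 glycolysis genes 6 fell and none rose (median -0.48). Ald1, the aldolase, was at 591, 622 and 734 CPM early and 259, 566, 288, 265 and 226 CPM at intermediate. Passage 6 stood near the early libraries and the other intermediate ones below them. Ald1 fell by 1.02 ± 0.22 (adjusted p = 0.000931), a call that was lost with passage 4 taken as intermediate (adjusted p = 0.0994). Gapdh2, a glyceraldehyde phosphate dehydrogenase with a close paralog, was at 538, 485 and 555 CPM early and 331, 554, 353, 348 and 294 CPM at intermediate, with passage 6 again at the early level. It fell by 0.48 ± 0.17 (adjusted p = 0.0241), a call that was lost without passage 2, 4, 5 or 11 (adjusted p = 0.0744, 0.0657, 0.0514 and 0.0673), in the fit of the 8 R4 libraries alone (0.0866), with passage 4 taken as intermediate (0.208) and without passages 4 and 5 together (0.114). The number of lower glycolysis genes was 1 with passage 4 taken as intermediate, 3 without passage 2, 4 or 5, 2 without passage 11 and 11 without passage 6.

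Of 16 heat shock genes 6 (37.5%, against 21.3% of all genes) fell and 1 rose (median -0.23), and 3 fell without passage 4 (15 tested) or 11. Hsp67Ba, a small heat shock protein, was at 30.0, 32.7 and 25.8 CPM early and 9.36, 6.47, 6.54, 6.63 and 6.54 CPM at intermediate. It dropped between passages 4 and 5 and fell by 2.05 ± 0.16 (adjusted p = 1.12e-08), with no overlap. stv, a co-chaperone of the BAG family, was at 55.4, 71.3 and 32.9 CPM early and 16.2, 9.54, 11.1, 16.3 and 7.94 CPM at intermediate and fell by 2.12 ± 0.28 (adjusted p = 1.13e-05). Hsc70-4, the constitutive cytosolic chaperone, was at 7644, 6464 and 6462 CPM early and 5314, 4747, 4736, 5048 and 4956 CPM at intermediate and fell by 0.47 ± 0.08 (adjusted p = 8.18e-05). Among genes of ribosomal proteins, 7.23% of cytosolic and 13.9% of mitochondrial ones were called, beside 36.7% of all genes; the difference was not tested. Of 83 genes of cytosolic ribosomal proteins 4 rose and 2 fell (median 0.07), and without passage 2, 3 or 9 the rises were 2. Of 72 mitochondrial ones 3 rose and 7 fell (median -0.08); 1 rose without passage 3, 4 or 9, 3 fell without passage 2 and 14 without passage 4. Of 143 small nucleolar RNAs 8 rose and 2 fell (median 0.16), and 1 rose without passage 2 and 5 of the 141 tested without passage 11. RpS19b, a paralog of RpS19a whose reads may be shared with it, was at 3.92, 3.80 and 4.38 CPM early and 0.871, 0.889, 0.490, 0.288 and 0.280 CPM at intermediate and fell by 2.81 ± 0.46 (adjusted p = 6.78e-05).

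The same step in R1 (3 early and 5 intermediate passages) and R5 (3 and 3) allowed a test of where the R4 change differed. The R4 change differed from that of R1 in 213 genes (2.32%), higher in 78 and lower in 135 (1.47%), and from that of R5 in 384 genes (4.18%), higher in 133 and lower in 251 (2.74%). Both differences were called with the same sign in 43 genes, 22 higher and 21 lower in R4; both use the same R4 libraries. Total-count scaling split the R1 count into 124 higher and 123 lower, and taking passage 4 as intermediate in every line left 18. Without passage 4 of R4 the R5 count was 830 and without passage 3 it was 212; without passage 2 the R1 count was 347.

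Several of the largest R4 rises exceeded the change of each other line. firl went from a mean of 4.19 ± 1.73 to 1.70 ± 0.143 CPM (SD) in R1 and 3.23 ± 2.95 to 0.608 ± 0.789 CPM (SD) in R5, and the R4 change was higher than theirs by 5.24 ± 0.83 against R1 (adjusted p = 0.000573) and 6.43 ± 1.01 against R5 (adjusted p = 0.000688). NtR went from 8.52 ± 5.66 to 3.18 ± 1.66 CPM (SD) in R1 and 8.95 ± 7.19 to 5.09 ± 2.61 CPM (SD) in R5. Its R4 change was higher by 4.67 ± 0.79 against R1 (adjusted p = 0.00153) and 4.06 ± 0.84 against R5 (adjusted p = 0.00596). PPO2 fell in both other lines, from 24.9 ± 17.0 to 2.56 ± 1.29 CPM (SD) in R1 and 104 ± 130.1 to 5.29 ± 1.43 CPM (SD) in R5. Its R4 change was higher by 5.86 ± 1.396 against R1 (adjusted p = 0.0234) and 6.95 ± 1.49 against R5 (adjusted p = 0.00790). CG33465 stayed under 1 CPM in R1 and R5, and its R4 change was higher by 5.99 ± 1.35 against R1 (adjusted p = 0.0158) and 5.74 ± 1.04 against R5 (adjusted p = 0.00271). The R4 change of LKRSDH was higher by 3.02 ± 0.64 against R1 (adjusted p = 0.0100) and 2.70 ± 0.69 against R5 (adjusted p = 0.0235), and that of stl by 1.92 ± 0.47 against R1 (adjusted p = 0.0287) and 2.11 ± 0.51 against R5 (adjusted p = 0.0179). Without passage 3 the calls of PPO2 against R1 and of LKRSDH against R5 were lost (adjusted p = 0.0663 and 0.0757). That of stl against R1 was lost without passage 2, 3, 9 or 11 (adjusted p = 0.0543, 0.0640, 0.0510 and 0.0522). Without passage 2 the differences of PPO2 were 7.73 and 8.83, of firl 6.23 and 7.43, of NtR 5.60 and 4.998, and of LKRSDH 3.85 and 3.53, against R1 and R5.

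Among genes lower in R4, unpg, a homeodomain factor first known from the nervous system, was at 25.9, 30.0 and 7.60 CPM early and 3.56, 2.26, 1.80, 1.08 and 2.05 CPM at intermediate in R4 and fell by 3.29 ± 0.35 (adjusted p = 1.54e-06). In R1 it rose from 17.5 ± 2.27 to 86.4 ± 28.0 CPM (SD), and in R5 it went from 90.8 ± 22.4 to 146 ± 2.73 CPM (SD). The R4 change differed by -5.60 ± 0.49 against R1 (adjusted p = 1.30e-07) and -3.98 ± 0.49 against R5 (adjusted p = 4.94e-05). Dtg, named as a target gene of Dpp, was at 105, 156 and 93.5 CPM early and 51.5, 23.9, 34.4, 45.4 and 26.4 CPM at intermediate and fell by 1.70 ± 0.25 (adjusted p = 2.44e-05). It rose in R1 from 127 ± 29.6 to 475 ± 133 CPM (SD) and went from 71.8 ± 12.5 to 63.3 ± 12.3 CPM (SD) in R5. The differences were -3.60 ± 0.37 against R1 (adjusted p = 1.35e-06) and -1.52 ± 0.38 against R5 (adjusted p = 0.0216). CG10764 was at 12.0, 7.76 and 12.6 CPM early and 2.32, 1.05, 0.654, 0.865 and 0.280 CPM at intermediate and fell by 3.35 ± 0.41 (adjusted p = 5.05e-06); with passage 4 taken as intermediate the adjusted p was 0.0596. Its R4 change differed by -2.56 ± 0.61 against R1 (adjusted p = 0.0234) and -3.66 ± 0.60 against R5 (adjusted p = 0.00121). The R4 change of upd3 differed by -2.18 ± 0.46 against R1 (adjusted p = 0.0101) and -1.74 ± 0.48 against R5 (adjusted p = 0.0373). Against R5 the call of Dtg was lost without passage 3 (adjusted p = 0.0864), and that of upd3 without passage 2, 3, 6, 7 or 11 (adjusted p = 0.0554, 0.113, 0.0593, 0.0621 and 0.0640). chinmo went from 689.9 ± 203 to 67.4 ± 83.6 CPM (SD) in R1 and from 978 ± 128 to 1299 ± 54.4 CPM (SD) in R5. Its R4 change differed by -3.37 ± 0.79 against R5 (adjusted p = 0.0146).

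With passage 4 of every line taken as intermediate, most of these differences no longer passed the test. Against R1, 2 of 10 kept their call, unpg and Dtg. Against R5, 3 of 11 did, firl, PPO2 and unpg, and among the 8 others the adjusted p ran from 0.0502 for NtR to 0.314 for CG10764. Against R1 the adjusted p of the 8 others ran from 0.124 for NtR to 0.865 for CG10764. Several of the differences that lost their call stayed about as large. Against R1 that of CG33465 was 5.59 and that of NtR 4.198, and against R5 that of chinmo was -3.37 and that of Dtg -1.61. That of CG10764 against R1 shrank to -0.95.

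**Figure D5:**
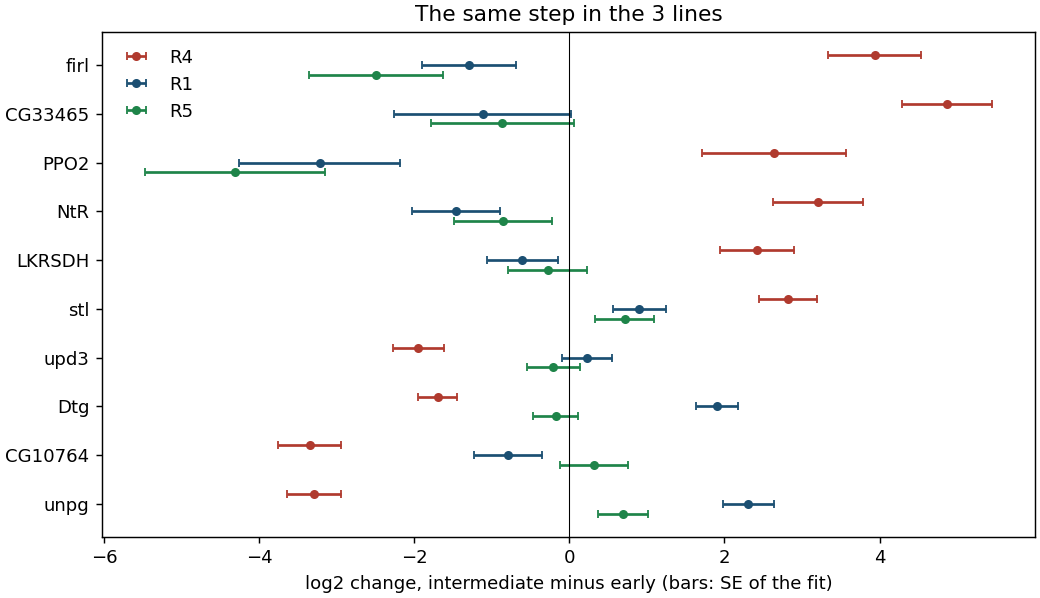
Log2 change from early to intermediate (x axis) of 10 genes (y axis) in R4, R1 and R5, as points. Bars are the approximate standard error derived from the F statistic of the edgeR test. firl, NtR and PPO2 stand to the right of 0 in R4 and to the left in R1 and R5, and unpg and Dtg stand to the left in R4 and to the right in R1.

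On the first principal component, passage 4 lay between the other early libraries and the intermediate ones. It was the highest of the 8 libraries in 1405 of all genes tested (15.3%), and in others, such as twi, the lowest. Leaving out passage 2 changed the size of several falls, as given beside each gene. The fit of the 8 R4 libraries alone made fewer calls, 2122 against 3366.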

How the data were processed

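The deposited files hold raw counts, 1 count per gene and library, which the authors made from reads with TopHat 1.4.1, Bowtie 0.12.8 and bedtools on BDGP5 (dm3), per the submitters' processing notes. No source used here gives what each tool did, how reads were counted, whether strand was used or which annotation was taken, so that reads of overlapping, antisense and near-identical genes cannot be told apart. Of 15253 entries per file, 2 name no gene (0.0134 to 0.0184% of counts) and were left out. Symbols came from the file IDs and a BDGP6.54 annotation, used for names and chromosome arms only, so no coordinates are given.

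Genes with at least 1 CPM in at least 3 libraries (9177) were tested with edgeR 4.0.16 in R 4.3.3 (TMM scaling, quasi-likelihood F test) on 31 libraries in 9 groups of line and stage, which share 1 estimate of the spread per gene (22 residual degrees of freedom), with Benjamini-Hochberg adjustment over all genes. The R4 step was also tested against the same step of R1 and of R5 as interaction contrasts. No pair of libraries was identical. Alternatives were other scalings and filters, DESeq2 1.42.0, passage 4 as intermediate, the 8 R4 libraries alone, passage number as a block for the interactions, each R4 library left out, and, added after the data were seen, passages 4 and 5 left out together.

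Members and gene lists were chosen with earlier results of these data known. Named genes are the 8 largest rises and falls among called genes with at least 10 CPM in the higher group and no overlap, further ones until 8 with a given name were reached in each direction, up to 4 called members of smallest adjusted p per list, the 3 genes of each direction with the largest difference from the R1 and R5 changes, and 12 genes named in every case. The text shows a part of these, chosen with their values known, and says where a gene lies outside the rule.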

Additional observations from a re-analysis of the deposited data

Results flagged for a closer look

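Among 101 genes whose values are given, 20 had 1 intermediate library far from the other 4 of its group, by a gap between neighbours against the whole range. For unordered, normally distributed values this rule sets apart about 1 in 20 groups. That rate does not hold here, since CPM are skewed and a steady trend over passages, as in tj, can also set a library apart. Passage 5 stood apart as the highest of the 5 for tj (19.1 CPM), piwi (18.7 CPM), dsx (12.5 CPM), TotA (0.218 CPM), CG15369 (0.290 CPM), Hesr (2.03 CPM), vari (68.9 CPM), Mlc2 (8.20 CPM), Act87E (14.5 CPM), vn (42.1 CPM) and Hsp67Ba (9.36 CPM). Passage 6 stood apart as the highest for Lcp3 (52.2 CPM), Ald1 (566 CPM) and Gapdh2 (554 CPM), and as the lowest for eya (1.13 CPM). Passage 11 stood apart as the highest for E(bx) (638 CPM), eater (13.4 CPM), zfh1 (112 CPM), Myc (649 CPM) and Psc (85.8 CPM). Passages 5 and 11 are the first and last of the intermediate group.

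The change of R4 from early to intermediate differed from that of another line, by the interaction test over all genes, in the genes that follow; values are the R4 change minus the other change on the log2 scale. Against R1 and against R5 in turn, the differences were 5.86 and 6.95 for PPO2, 5.99 and 5.74 for CG33465, 5.24 and 6.43 for firl, 4.67 and 4.06 for NtR, 1.92 and 2.11 for stl, 3.02 and 2.70 for LKRSDH, -2.18 and -1.74 for upd3, -5.60 and -3.98 for unpg, -2.56 and -3.66 for CG10764 and -3.60 and -1.52 for Dtg. For genes called in the test against R1 and not in that against R5, the differences from R1 were -2.08 for spz, -5.53 for Lst, -3.99 for SoxN, -1.18 for Socs36E and -0.85 for Hsp67Ba. For genes called against R5 and not against R1, the differences from R5 were -3.66 for eya, -2.52 for tsh, -3.37 for chinmo, -1.23 for mamo, -1.55 for mael, -5.15 for atilla, -1.41 for Nrg, -3.14 for ple, -6.22 for Cpr11A, -4.16 for Him, -4.37 for slou, 0.53 for dpa, 0.69 for kek1, -2.07 for upd2, -3.50 for wg and -1.59 for stv. The R5 intermediate group had 3 libraries, at passages 6, 7 and 8.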

How the results depend on the processing

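The 3366 calls of the R4 step stayed within 1.5 times under other scalings, filters and DESeq2 (2816 to 3461), with passage 4 taken as intermediate (3156), without any 1 library (2299 to 3778) and without passages 4 and 5 together (3707); the 8 R4 libraries alone gave 2122. The 213 differences from R1 became 445 with DESeq2 and 18 with passage 4 of every line as intermediate, and ran from 143 to 347 over the libraries left out. The 384 differences from R5 became 621 with DESeq2 and 902 without passages 4 and 5 of R4, and ran from 212 to 830 over the libraries left out. With passage number as a replicate block the counts were 175 against R1 and 406 against R5, and it changed no call among the 10 genes followed against R1 and the 11 followed against R5. No paired analysis was possible for the R4 step itself because its stages share no passage number. The sign turned for genes that did not pass the test. For Myc the log2 change was 0.012 with passage 4 as intermediate, 0.0026 without passage 4 or passage 5 and 0.021 without both, and -0.067 to 0.0026 over single libraries left out. For twi it was -0.26 with passage 4 as intermediate, -0.11 without passage 4 and -0.0042 without passage 11, and -0.11 to 0.51 over single libraries left out. The causes were not tested. Of the 101 genes shown, calls were lost for 8 with passage 4 as intermediate and for 6 of the 94 with enough reads to be tested in the fit of the 8 R4 libraries. Genes under about 10 reads in a group have imprecise changes, and intervals between cultures cannot be had from 1 culture per line.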

Other observations

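Some genes that fell at intermediate were high again in the late libraries of R4 (passages 16, 17 and 19). They were chosen after their values were seen, and the steps from early to intermediate and from intermediate to late share the intermediate libraries, so only levels are given. Of 450 genes that fell over 2-fold from a mean of at least 10 CPM, 35 had a late mean at least 3 times the intermediate mean and not far below early. Adgf-A, a secreted adenosine deaminase, had means of 117 ± 48.9 CPM early, 39.5 ± 2.26 CPM at intermediate and 213 ± 22.5 CPM late (SD, n = 3, 5 and 3). The Sox factor Sox102F went from 157 ± 40.3 through 77.3 ± 29.7 to 234 ± 15.1 CPM. The eye and gonad factor so went from 12.98 ± 8.79 through 2.42 ± 0.603 to 24.0 ± 2.06 CPM, and eya from 16.1 ± 13.2 through 1.51 ± 0.216 to 26.3 ± 2.79 CPM. The Hox gene Antp went from 22.3 ± 14.6 through 6.37 ± 1.07 to 27.0 ± 3.29 CPM. chinmo had means of 504 ± 288 CPM early, 64.9 ± 24.1 CPM at intermediate and 369 ± 52.4 CPM late, and all late libraries lay above passage 4 and below passages 2 and 3.

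A short peak was seen in 7 genes, again chosen after their values were seen, whose highest value at passages 5 to 7 was at least 3 times that of any early library and of passage 11. Eaat1, the glial glutamate transporter, was at 19.1, 19.2 and 24.4 CPM early and at 87.5, 90.8, 41.4, 24.1 and 14.2 CPM at intermediate. FASN2, a fatty acid synthase, was at 4.32, 12.4 and 7.27 CPM early and at 20.3, 54.0, 30.1, 42.3 and 15.3 CPM at intermediate. CG16978 was at 0.270, 3.49 and 36.0 CPM early and at 84.7, 111, 29.7, 12.5 and 11.3 CPM at intermediate.

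By chromosome arm, the share of tested genes that fell was 26.7% on 3R (566 of 2117) and 29.6% on chromosome 4 (24 of 81), and 16.6% on X (254 of 1530), beside 21.3% of all genes. No test of arms was made.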
